A study of Mus musculus with 17 samples.

Results

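RNA polymerase II gained 1743 regions inside protein-coding genes of mouse macrophages after R837. Peak summits of all 16 polymerase lists were pooled, and summits at most 500 bp apart were chained into regions, 47904 in all. A region was kept where its midpoint lay inside a protein-coding gene and more than 1 kb from every protein-coding gene start or end. It also had no summit in the 4 untreated libraries and a summit in at least 6 of the 12 R837 libraries. The 1743 gained regions were 3.639% of all regions and 6.813% of the 25583 gene-body regions, and they lay in 493 host genes. The members were selected on treated against untreated lists, so that contrast is described here and not tested.

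The cells were bone marrow-derived macrophages, WT or lacking N4bp1 (KO). N4BP1 is known as an inhibitor of cytokine responses that caspase-8 cleaves. The 8 groups of 2 libraries were WT and KO cells without treatment, and WT and KO cells given R837 for 2, 4 or 6 h. R837 (imiquimod) activates TLR7, an endosomal receptor for single-stranded RNA. Polymerase was precipitated with an AbFlex RNA Pol II antibody. The labels do not state which part of N4bp1 was removed or how the mice were bred. Nor do they say whether the libraries of a group are from different cultures or mice, and p-values here cover only the spread between libraries. A lower share of cells with polymerase on a gene and less polymerase per cell cannot be told apart. As a check of the cell label, 30 of 33 macrophage identity genes had a summit in all 4 untreated libraries. The same held for at most 1 gene of each of the 7 lists of other cell types, which covered lymphocytes, neutrophils, dendritic cells, mast cells with basophils, erythroid cells and stroma. None of these other lists hosted a gained region, but at most 4 genes of a list had any gene-body region. Since 8.515% of all genes with such a region hosted a gained one, this does not check the label. The number of summits ran from 8394 to 29760 per list, and read depth is unknown because the lists hold no counts. Codes in the peak names form 3 series, of which the first covers untreated cells and 2 h and the others 4 h and 6 h alone, so a difference between times and a difference between code series cannot be told apart.

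RNA polymerase II initiates at gene starts, often pauses just downstream, and then elongates through the gene body to the 3′ end. TLR7 signals through MyD88, the kinase TAK1 and the IKK complex to NF-kB, which activates early genes for cytokines, survival factors and the pathway's own inhibitors. A second layer of genes follows, induced in part through interferon, JAK kinases and STAT proteins. Summits spread along a gene body therefore mark genes on which polymerase was found away from its start.

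Most gained regions did not lie at an annotated start. Only 29 of 1743 (1.664%) overlapped a RefSeq promoter window, which runs from 250 bases before to 50 bases after an annotated start (GRCm38.p6). The share was 21.32% (754 of 3536) for gene-body regions with a summit in all 4 untreated libraries. For 21 of the 29, the window belonged to the host gene itself. The 4 windows printed here show starts that gained regions lie on or beside, and were chosen after the values of their genes were seen. The Il1rn window is chr2:24345121-24345420 (plus strand), 8511 bp into the gene with the start at 24345371, and the gained region begins at 24345417. That of Slc7a11 is chr3:50443564-50443863 (minus strand), whose start is 55474 bp into the annotated gene and inside the gained region. The window of Cybb, the catalytic subunit of the phagocyte NADPH oxidase, is chrX:9469275-9469574 (minus strand), with a start 18442 bp into the gene and inside the gained region. The window of Gbp5, an interferon-induced GTPase, is chr3:142496684-142496983 (plus strand) at the gene start, and the gained region spans that start with its midpoint more than 1 kb beyond it. Capitals mark matches, on either strand, to GGGANNTTC (NF-kB) or TGANTCA (AP-1).
Il1rn: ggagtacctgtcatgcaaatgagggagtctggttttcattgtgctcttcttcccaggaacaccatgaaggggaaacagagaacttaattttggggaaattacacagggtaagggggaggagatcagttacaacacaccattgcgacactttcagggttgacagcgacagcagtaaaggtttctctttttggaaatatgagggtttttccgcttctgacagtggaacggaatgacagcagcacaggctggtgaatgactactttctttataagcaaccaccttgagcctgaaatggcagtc
Slc7a11: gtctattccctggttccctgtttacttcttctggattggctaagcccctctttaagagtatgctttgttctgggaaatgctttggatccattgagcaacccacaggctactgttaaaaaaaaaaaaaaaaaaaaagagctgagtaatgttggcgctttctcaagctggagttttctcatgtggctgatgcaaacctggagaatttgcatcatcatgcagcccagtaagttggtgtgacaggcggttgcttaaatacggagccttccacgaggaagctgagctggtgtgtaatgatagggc
Cybb: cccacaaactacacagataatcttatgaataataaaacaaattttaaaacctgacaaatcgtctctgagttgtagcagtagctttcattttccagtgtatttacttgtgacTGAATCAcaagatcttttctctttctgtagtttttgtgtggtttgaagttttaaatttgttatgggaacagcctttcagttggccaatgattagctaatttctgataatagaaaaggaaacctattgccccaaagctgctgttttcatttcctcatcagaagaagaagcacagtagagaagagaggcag
Gbp5: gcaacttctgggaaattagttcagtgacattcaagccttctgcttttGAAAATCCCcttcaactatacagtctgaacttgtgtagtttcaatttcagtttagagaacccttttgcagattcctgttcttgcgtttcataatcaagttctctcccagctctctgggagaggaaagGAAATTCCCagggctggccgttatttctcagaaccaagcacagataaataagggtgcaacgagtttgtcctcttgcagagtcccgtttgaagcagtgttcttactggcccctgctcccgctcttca
The Gbp5 window held 2 matches to the NF-kB letters, and the Cybb window held 1 match to the AP-1 letters. Those of Il1rn and Slc7a11 held neither. Among the 558 promoter windows of host genes, 5.38% held the NF-kB letters, against 3.8% of all 21262 protein-coding windows. For AP-1 the shares were 5.2% and 6.99%. The other motifs searched were PU.1 (GAGGAAGT), with 6.63% against 3.13%, C/EBP (TTGCNNAA), with 12.4% against 10.2%, ISRE (GAAANNGAA), with 11.6% against 8.14%, and STAT (TTCNNNGAA), with 7.71% against 7.69%. Matches of different motifs may overlap. A gene with several annotated starts has several windows, and only 397 host genes had one.

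Along the gene, the gained regions leaned away from the 5′ end. Position could be measured for 1391 of them, which lay in 1 gene of known strand. With the gene divided into 4 equal stretches from 5′ to 3′, the stretches held 20.56%, 25.02%, 26.96% and 27.46% of these. For 2882 gene-body regions with a summit in all 4 untreated libraries, the stretches held 39.87%, 24.05%, 18.36% and 17.73%. The median position was 54.03% of gene length for gained regions and 34.72% for the resting ones. It was 50.35% over all 20873 gene-body regions, so resting regions lay further from that value than gained ones. Gained regions were a median of 26047 bp from the gene start, and 169 (12.15%) were within 5 kb of it. They were 22 to 13752 bp wide, with a median of 1092 bp, against 651 bp for the resting regions. A region's width grows with the number of summits chained, so the widths also reflect how many libraries hold it. The gap of 1 kb was applied to midpoints, and 1662 of the 1743 kept it over their whole span.

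**Figure D1:**
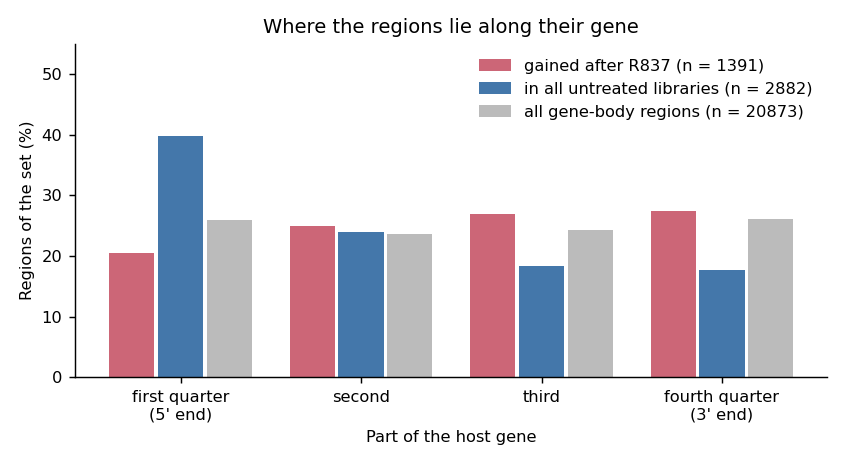
Share of regions (y axis, percent of the set) in each of 4 equal stretches of the host gene from 5′ to 3′ (x axis), for gained regions, regions present in all untreated libraries and all gene-body regions. The resting regions fall from 39.87% in the first stretch to 17.73% in the last, whereas gained regions go from 20.56% to 27.46%.

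The host genes were only slightly longer than the genes with any gene-body region. Their median length was 31062 bp, against 28476 bp for the 5790 genes with any gene-body region and 17170 bp for all protein-coding genes. Of 397 host genes with a known strand, 194 (48.87%) had a summit within 1 kb of the start in all 4 untreated libraries, and 159 (40.05%) had none there. The corresponding shares were 52.28% and 35.94% among the 4675 genes of known strand with a gene-body region. At 182 of the 493 host genes no untreated library had a summit in the gene body, and at 64 none had one in the body or within 1 kb of either end. The gained regions were also concentrated. While 249 genes held 1 region each, 43 genes held at least 10, and together these 43 held 751 regions (43.09%).

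How often a gained region was seen differed between libraries. At 2 h, 862 and 929 gained regions had a summit in WT replicates 1 and 2, and 859 and 833 in the KO replicates. At 4 h, the counts were 1293 and 1397 in WT and 1497 and 1491 in KO. At 6 h, they were 1247 and 833 in WT and 1480 and 1405 in KO. The 4 h libraries were therefore all above the 2 h libraries, whereas WT replicate 2 at 6 h was as low as the 2 h libraries. List length moved with these counts. The 2 h lists held 9402 to 13825 summits, the 4 h lists 16391 to 25612, and the 6 h lists 8394 (WT replicate 2) to 29760 (KO replicate 2). Every R837 list was then reduced to the 8394 summits with the best scores, as many as the shortest list holds. In these shortened lists the share of gained regions with a summit was 30.41% to 44.23% at 2 h, 40.39% to 43.09% at 4 h and 25.87% to 47.79% at 6 h. KO replicate 2 at 6 h was lowest in the shortened lists and had the longest deposited list. In the deposited lists 492 gained regions had no summit at 2 h, while 22 had none at 4 h and 28 had none at 6 h. Among the 492 without a summit at 2 h, 362 had one in at least 3 of 4 libraries at both later times. The opposite course, all 4 libraries at 2 h and at most 1 at 6 h, was followed by 54. More KO than WT libraries held a summit at 838 regions and more WT than KO libraries at 419, again with the longer KO lists at 4 and 6 h.

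**Figure D2:**
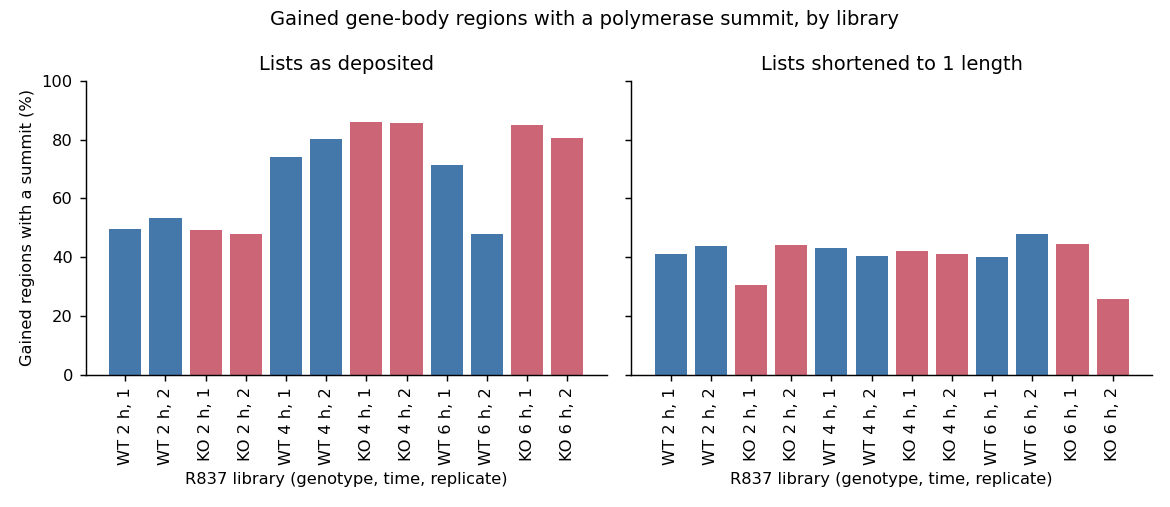
Share of the 1743 gained regions with a summit (y axis, percent) in each R837 library (x axis; WT blue, KO red), in lists as deposited (left) and shortened to 8394 summits (right). Deposited lists run from 47.79% to 85.89%, and shortened lists from 25.87% to 47.79%.

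A total of 148 gained regions had a summit in every R837 library, and 480 had one in exactly 6. Within a list, summits were ordered by the authors' score, and the rank of a region is that of its best summit. The region with the best mean rank was in Syk, a kinase that signals downstream of Fc and lectin receptors (chr13:52599865-52600191, GRCm38). Its ranks were 547 and 647 in WT at 2 h, 662.5 and 1005 in KO at 2 h, 313 and 162 in WT at 4 h, and 50 and 157 in KO at 4 h. At 6 h they were 174 and 480 in WT and 46 and 86 in KO, so every 4 h and 6 h library ranked it above every 2 h library. Other regions of the top 12 included 4 in Adgre1, the gene of the macrophage marker F4/80, and 1 each in Aoah, Il1rn, Ptges, Spaca6, Nfkb1 and Mapkapk2. At the edge of the rule, 554 gene-body regions had no untreated summit and exactly 5 R837 libraries. Among these, regions at chr17:34121464-34121599 (Brd2 and H2-DMa) and chr2:122155396-122155629 (Patl2) ranked best. Just inside, with 6, were regions of Tnip3 (chr6:65602103-65602821) and Tnip1 (chr11:54961794-54962070).

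Pid1, an adaptor with a phosphotyrosine-binding domain, held the most gained regions, 79 of its 113 gene-body regions over 303550 bp (chr1:84036293-84339842, minus strand). In WT at 2 h, 11 and 15 of the 79 had a summit, and in KO at 2 h, 7 and 7 did. At 4 h, the counts were 74 and 73 in WT and 71 and 75 in KO, and at 6 h they were 75 and 60 in WT and 73 and 72 in KO. The difference lay mostly in the far part of the gene. At 2 h the farthest gained-region summit was 142.6 to 167 kb from the gene start in the 4 libraries, and at 4 and 6 h it was 297.1 to 303.4 kb in the 8 libraries. Of 46 gained regions beyond the midpoint of the gene, the 2 h libraries held 0, 2, 0 and 1, and the later libraries held 33 to 46. Aoah, which encodes the enzyme that removes acyl chains from lipopolysaccharide, showed the same course over 242515 bp. At 2 h its farthest gained-region summit was 30.5 to 51 kb from the start, and at 4 and 6 h it was 232.5 to 234.4 kb. None of the 8 gained regions beyond the midpoint of Aoah had a summit at 2 h, and 5 to 8 did later. This reach was measured after the values of Pid1 had been seen, for the 13 genes of known strand longer than 100 kb with at least 10 gained regions. Apbb1ip and Rin2 likewise had no gained-region summit beyond the midpoint at 2 h, against 1 to 6 of 6 and 6 to 12 of 12 later. Rin2, though, had no gained-region summit anywhere at 2 h. Most later lists were also longer than the 2 h lists. The course was not general. In Ptprj, a receptor tyrosine phosphatase of 150939 bp, the farthest summit was already 131.5 to 136.5 kb from the start at 2 h, against 136.4 to 136.8 kb later. In Fyb, Sash1, Nrp2, Notch2, Gsap and Rbpj, too, at least 1 gained region beyond the midpoint had a summit in each of the 4 libraries at 2 h.

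**Figure D3:**
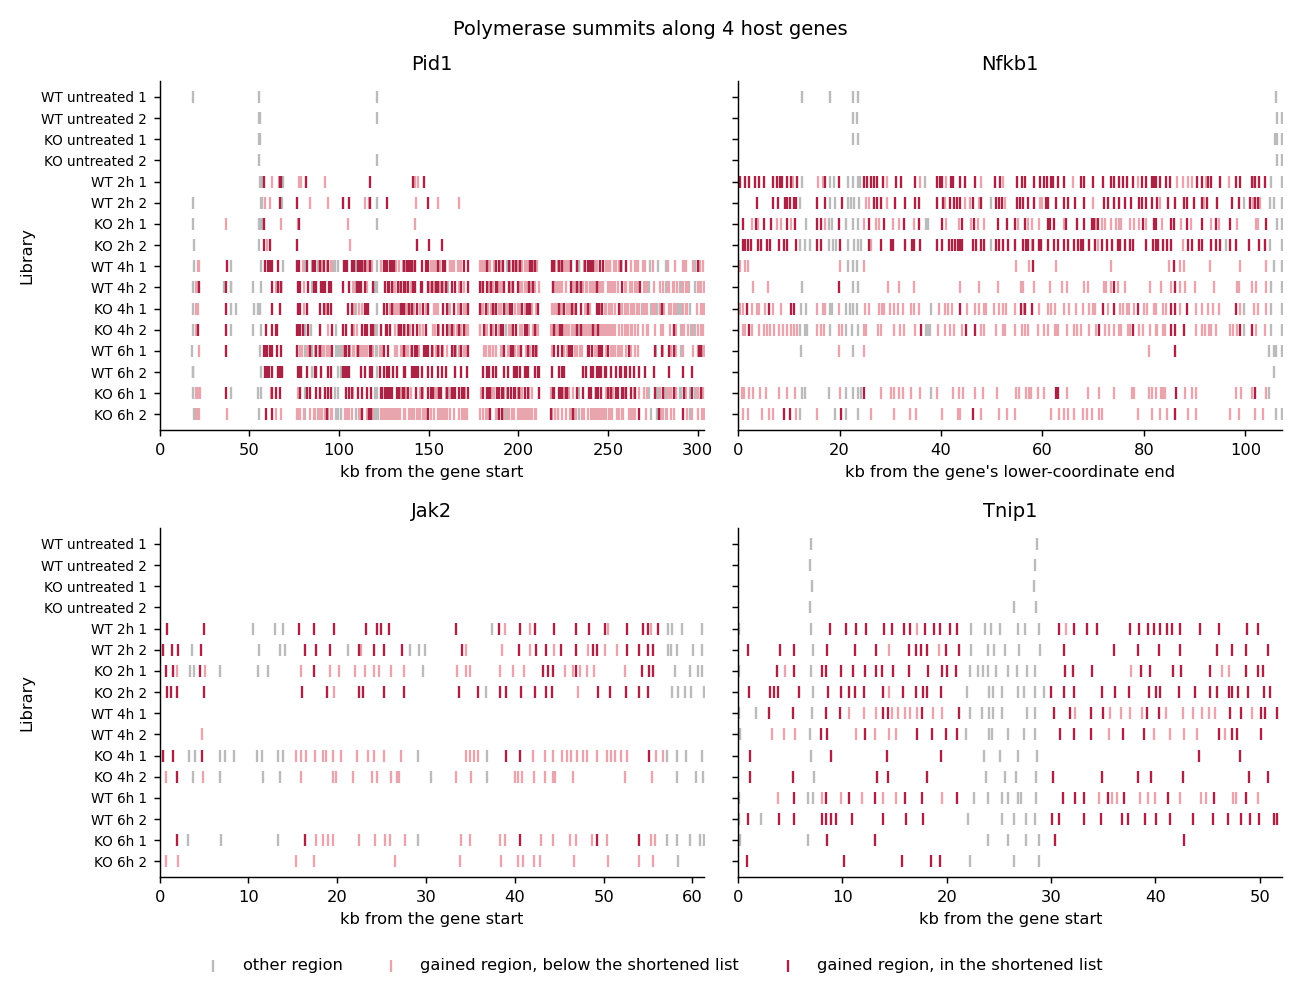
Polymerase summits (ticks) along Pid1, Nfkb1, Jak2 and Tnip1, by library (rows), with distance in kb on the x axis. Dark red ticks are summits of gained regions among the 8394 best of a list, pale red ticks are other summits of gained regions, and grey ticks are summits of other regions. Gained-region summits of Pid1 reach 167 kb at most at 2 h and at least 297.1 kb later, and Jak2 has at most 1 gained region with a summit in each WT library at 4 and 6 h.

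To compare genes across times and genotypes, the share of a gene's body regions with a summit in the shortened lists was taken as 1 value per library. This measure was added after the data were seen. It covered 70 genes with at least 10 gene-body regions found in at least 6 R837 libraries, whether or not untreated libraries had them, and included all 43 genes with at least 10 gained regions. Shares were fitted with limma, and changes are in percentage points with the standard error (SE).

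From 2 h to 4 h, 7 of the 43 genes rose and 12 fell, against 20% of the 70 genes rising and 25.7% falling. In deposited lists the balance was the other way, with 17 rising and 5 falling. From 2 h to 6 h, 4 rose and 13 fell, against 17.1% and 27.1% of the 70, and in deposited lists 12 rose and 10 fell. Among those that fell were Jak2, the kinase of interferon-gamma and many cytokine receptors, and Nfkb1, the gene of the NF-kB subunit p105/p50. All 16 gained regions of Jak2 had a summit in both WT libraries at 2 h in the deposited lists, and 15 and 15 in KO. At 4 h, 0 and 1 had one in WT and 15 and 12 in KO, and at 6 h, 0 and 0 in WT and 14 and 12 in KO. In the shortened lists the counts were 16, 13, 8 and 15 at 2 h (WT, then KO), 0, 0, 5 and 1 at 4 h, and 0, 0, 5 and 0 at 6 h. The Jak2 share fell by 71.88 points (SE 10.5, adjusted p = 8.03e-06) from 2 h to 4 h. For Nfkb1, with 29 gained regions, the deposited lists gave 29, 28, 29 and 27 at 2 h (WT, then KO), 12, 20, 29 and 29 at 4 h, and 5, 1, 23 and 26 at 6 h. Its share fell by 69.85 points (SE 7.918, adjusted p = 3.945e-07) from 2 h to 6 h. In both genes the KO counts at 6 h were above the WT counts in the deposited lists. The difference between genotypes passed in neither gene in the shortened lists. Other genes whose fall from 2 h to 6 h passed with lists shortened and as deposited were Cd44, a hyaluronan receptor, Plek, Ell2, an elongation factor, Fnbp1l, Nrp2, Tnip1, Malt1 and Msr1, the scavenger receptor A. For Malt1 the change was -27.5 points (SE 10.91, adjusted p = 0.0438), and it missed the threshold when any of 8 libraries was left out (WT replicates 1 and 2 and KO replicate 2 at 2 h, both WT replicates at 4 h, both WT replicates and KO replicate 2 at 6 h), with adjusted p up to 0.292.

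Other genes followed the opposite course. Lyn, a Src-family kinase, held 28 gained regions, of which the deposited lists had 5, 4, 2 and 3 at 2 h (WT, then KO), 27, 23, 24 and 28 at 4 h, and 26, 24, 24 and 27 at 6 h. Its share rose by 55.36 points (SE 9.685, adjusted p = 6.858e-05) from 2 h to 4 h. Rin2, an exchange factor for Rab5, and Tet2, which oxidises 5-methylcytosine, had 17 gained regions each. Neither had one in the shortened lists at 2 h, and the shortened lists held 5 to 10 of Rin2 and 5 to 11 of Tet2 at 4 h and 3 to 8 of Rin2 and 2 to 7 of Tet2 at 6 h. The shares rose by 48.75 points in Rin2 and by 44.44 points in Tet2 from 2 h to 4 h. Each region of this measure had to be found in at least 6 R837 libraries. A region seldom found at 2 h therefore had to be found later. In deposited lists no gained region of Rin2 had a summit at 2 h, so the rule favoured a rise. The rises of Rin2 and Tet2 are thus given as descriptions. The same selection bears on the other genes that rose, and their adjusted p-values do not account for it. Tet2 was not among the genes that rose from 2 h to 6 h, which were Pid1, Lyn, Lcp2 and Rin2. Pid1, Aoah, Lcp2 (the adaptor SLP-76) and Fyb, an adaptor that binds it, also rose from 2 h to 4 h, in shortened and in deposited lists. Leaving out any 1 of 12 libraries kept the call for Jak2, Nfkb1, Lyn, Pid1, Aoah and Lcp2. For Fyb the rise of 25.83 points (SE 8.801, adjusted p = 0.0185) was lost without WT replicate 2 at 2 h, KO replicate 1 at 2 h, WT replicate 1 at 4 h or KO replicate 1 at 4 h, with adjusted p up to 0.102. From 4 h to 6 h, 1 of the 43 genes rose and 3 fell, against 4.29% each way of the 70. Of these only the fall of Msr1 passed in both kinds of list, at -39.58 points (SE 8.551, adjusted p = 0.003785). Leaving out KO replicate 2 at 6 h, or WT replicate 1 at 4 h, left 1 call in that contrast, and so did leaving out WT replicate 2 at 6 h. It left 2 without either WT library of 2 h, KO replicate 1 of 4 h or WT replicate 2 of 4 h.

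**Figure D4:**
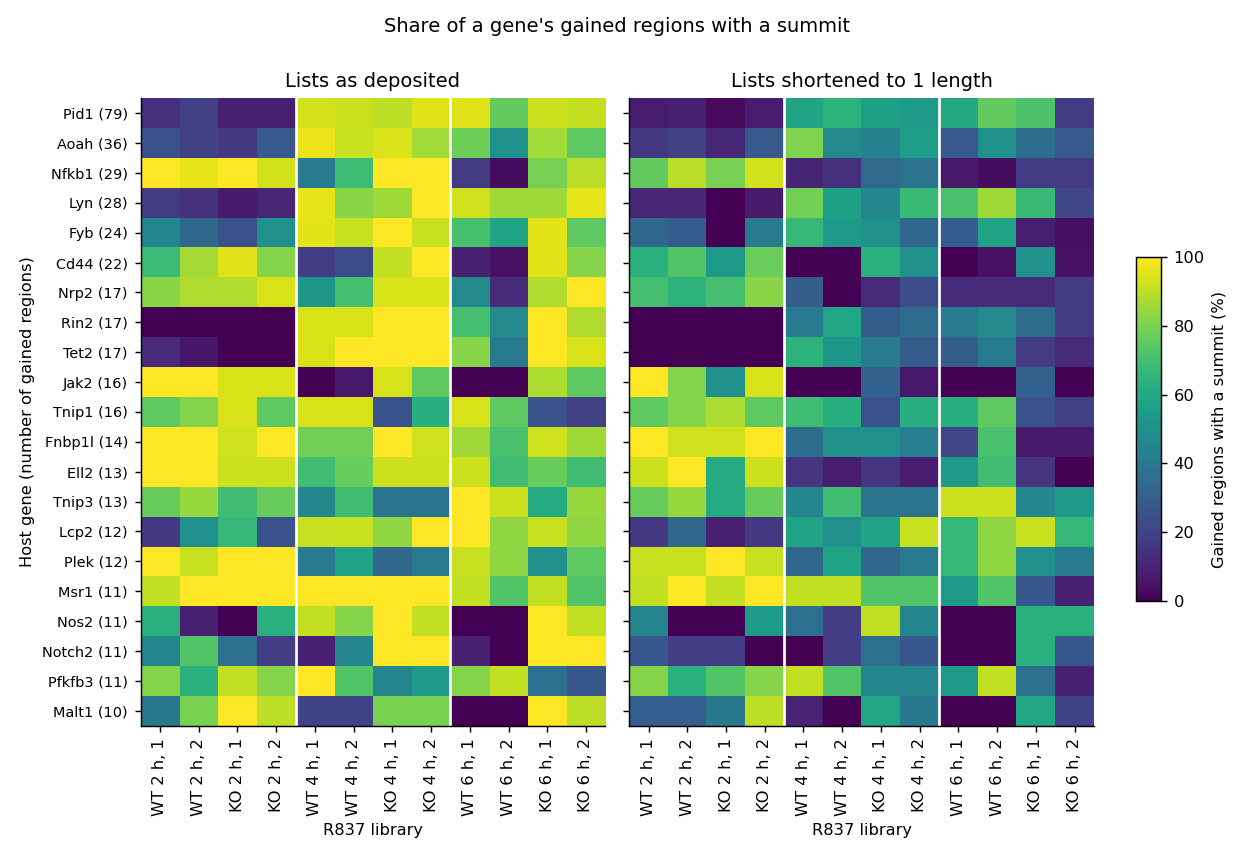
Share of the gained regions of each gene with at least 10 whose share passed a contrast in the same direction in both kinds of list (rows; number of gained regions in brackets) that had a summit in each R837 library (columns), as colour from 0% to 100%, for deposited (left) and shortened (right) lists. In deposited lists Pid1, Lyn, Rin2 and Tet2 are dark at 2 h and brighter later, and Jak2, Cd44, Malt1 and Nos2 are dark at 6 h in WT but not in KO. In shortened lists KO replicate 2 of 6 h is dark as well for Jak2 (0 gained regions with a summit) and Cd44 (1).

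KO and WT macrophages differed at single genes with many gained regions. Cd44 held 22, of which the shortened lists had 14 and 16 in WT and 12 and 17 in KO at 2 h, 0 and 0 in WT and 14 and 11 in KO at 4 h, and 0 and 1 in WT and 11 and 1 in KO at 6 h. The groups overlapped at 2 h and touched at 6 h, and did not overlap at 4 h. The Cd44 share was higher in KO by 57.41 points at 4 h (SE 13.4, adjusted p = 0.0182). It was higher by 27.78 points over the 3 times (SE 7.738, adjusted p = 0.009448). The call at 4 h was lost without WT replicate 1, WT replicate 2 or KO replicate 1 of 4 h, with adjusted p up to 0.368. Malt1, a protease of the NF-kB pathway, held 10 gained regions, and the shortened lists had 3, 3, 4 and 9 at 2 h (WT, then KO), 1, 0, 6 and 4 at 4 h, and 0, 0, 6 and 2 at 6 h. Every KO library was above both WT libraries at each time. The share was higher in KO by 40 points over the 3 times (SE 8.909, adjusted p = 0.002693). Nos2, inducible nitric oxide synthase, had 11 gained regions, with shortened-list counts of 5, 0, 0 and 6 at 2 h (WT, then KO), 4, 2, 10 and 5 at 4 h, and 0, 0, 7 and 7 at 6 h. Its share was higher in KO by 63.64 points at 6 h (SE 17.07, adjusted p = 0.009216), and without WT replicate 2 at 6 h the adjusted p was 0.0941. Notch2, with 0, 0, 7 and 3 of 11 at 6 h, was higher in KO by 50 points (SE 14.43, adjusted p = 0.0114), a call lost without WT replicate 2 or KO replicate 1 of 6 h, with adjusted p up to 0.183. The selection on at least 6 R837 libraries bears on the genotypes too. A region seldom found in WT had to be found in KO, and the reverse. Adjusted p-values for these genes, and for the genes lower in KO below, do not account for it.

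In the other direction, gained regions of Tnip1, which encodes the ubiquitin-binding NF-kB inhibitor ABIN-1, were fewer in KO. Of its 16 gained regions, the deposited lists had 12, 13, 15 and 12 at 2 h (WT, then KO), 15, 15, 4 and 10 at 4 h, and 15, 12, 4 and 3 at 6 h, although the KO lists were the longer at 4 and 6 h. The shortened lists gave 12, 13, 14 and 12, then 11, 10, 4 and 10, then 10, 12, 4 and 3. The share was lower in KO at 6 h, with a change of -39.47 points (SE 11.56, adjusted p = 0.0114). The call was lost without WT replicate 2 or KO replicate 2 of 6 h, with adjusted p up to 0.113. Plek (-32.14 points, SE 10.99, adjusted p = 0.0274) and Pfkfb3, the enzyme that makes fructose 2,6-bisphosphate (-35.71 points, SE 11.86, adjusted p = 0.0236), were also lower in KO at 6 h in both kinds of list. The Pfkfb3 call was lost without WT replicate 2 or KO replicate 2 of 6 h, and the Plek call was lost without these or either WT library of 2 h. Lists of unequal length matter here. Over the 70 genes the median change at 6 h was -19.2 points in shortened lists and 12.5 points in deposited lists. At 6 h, 3 of the 43 genes were higher and 12 lower in KO, against 4.29% and 28.6% of the 70, and in deposited lists 15 were higher and 3 lower. Only 6 of these 15 were called in the same direction in the deposited lists. Leaving out KO replicate 2 at 6 h gave 4 higher and 2 lower, and leaving out WT replicate 2 at 6 h gave none. At 4 h, 1 gene was higher (Cd44) and none lower, against 1.43% and 2.86%, with no call without either WT library or KO replicate 1 of 4 h, 3 without KO replicate 2 of 4 h and 2 without KO replicate 2 of 6 h. At 2 h none differed, against 1.43% higher and 4.29% lower of the 70, with 3 of the 43 at an unadjusted p under 0.05 in limma. Without KO replicate 2 of 2 h there were 2 calls, and without either KO library of 6 h 1. Over the 3 times 4 were higher and 12 lower, against 5.71% and 27.1%, while deposited lists gave 9 higher and 2 lower. The balance of directions thus depended on list length, and 5 of the 16 were called the same way in deposited lists (Cd44, Malt1, Nos2 and Notch2 higher, Tnip1 lower). The calls for Cd44 and Malt1 over the 3 times held without any 1 of the 12 libraries. That of Nos2 was lost without WT replicate 2 of 2 h or of 4 h, and those of Notch2 and Tnip1 in 7 and 9 of 12 omissions. Leaving out 1 library left 2 to 19 of these calls. It left under 11 without either WT library or KO replicate 1 of 2 h, either WT library or KO replicate 1 of 4 h, or replicate 2 of either genotype at 6 h. No gene of the 43 passed the test of KO against WT at 6 h relative to 2 h, against 0% higher and 2.86% lower of the 70, while 10 of the 43 had an unadjusted p under 0.05 in limma and 16 were called in deposited lists. Without KO replicate 2 of 2 h or WT replicate 1 of 6 h there were 2 calls, and without either KO library of 6 h 1. In the shortened lists, genotype effects at 6 h and at 2 h were thus not shown to differ.

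Single gained regions were compared on a rank score, log2 of 8395 divided by the rank in the shortened list, with 0 for no summit. The highest possible score was 13.04. The limma test took in the 12987 regions that 2 or more of the 12 shortened lists contained, and 1502 of the 1743 gained regions were among them. The other 241 were too rarely among the best summits to be tested.

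From 2 h to 4 h, 41 gained regions rose and 70 fell (2.73% and 4.66%), against 2.95% and 2.9% of all regions tested. The largest rise was that of Il1rn, the interleukin-1 receptor antagonist, at the internal start shown above. Its ranks were 5074 and 3447 in WT at 2 h, 5543 and 8415 in KO at 2 h, 360 and 185 in WT at 4 h, and 138 and 183 in KO at 4 h. At 6 h they were 1668.5 and 2919 in WT and 140.5 and 2914 in KO, so all 4 h libraries ranked it above all 2 h libraries, and at 6 h KO replicate 1 was as high as the 4 h libraries while the others lay between. The score rose by 4.72 (SE 0.842, adjusted p = 0.0208). Ms4a6c rose by 3.01 (SE 0.649, adjusted p = 0.0315). A region of Fpr1, a formyl peptide receptor, rose by 2.99 but had no summit in any 2 h library. The rule thus admitted it through 4 h and 6 h libraries alone, and its rise is given as a description. The same applies to rises among the 492 gained regions without a summit at 2 h, since these could not fall in this contrast. Gained regions of Ccl4, Cd38, Rin2, Lyn, Pid1, Lcp2, Stat2, Xaf1, Rnf213 and Oasl2 were among the others that rose. The falls were led by Cd40, a costimulatory receptor of the TNF receptor family, by -3.65 (SE 0.375, adjusted p = 0.003474). A region of Aebp2, a cofactor of polycomb complexes, ranked 840.5, 1484.5, 649 and 633.5 at 2 h and was in no shortened list later, so it entered the test through the 2 h libraries alone and is given as a description. The same held for 9 of the 41 rises and 23 of the 70 falls, whose summits in shortened lists all lay in the higher group. Nfkb1 had 9 falling regions, Cd40 4, and Nfkbiz, Jak2, Mllt6 and Pgs1 3 each. The changes of Il1rn and Cd40 passed without any 1 of the 12 libraries. That of Ms4a6c was lost without any 2 h or 4 h library (adjusted p up to 0.0745). The balance of rises and falls depended on which library was present. Without 1 of the 4 h libraries there were 36 to 48 rises and 22 to 28 falls, and without 1 of the 2 h libraries 14 to 20 rises and 63 to 125 falls. The total was 72 without KO replicate 1 of 4 h, 58 without KO replicate 2, 65 without WT replicate 1 and 73 without WT replicate 2. With lists as deposited, 265 gained regions rose and 27 fell, and with only the presence of a summit scored, 471 rose and 66 fell.

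From 2 h to 6 h, 15 gained regions rose and 83 fell (0.999% and 5.53%), against 2.83% and 4.19% of all regions. Cd40 had ranks of 624, 223, 307 and 263.5 at 2 h, 11679.5 and 3775.5 in WT and 537 and 594 in KO at 4 h. At 6 h no WT library had a summit in it, and its ranks in KO were 6019 and 16987.5. The score of this region (chr2:165059491-165059907) fell by 4.57 (SE 0.488, adjusted p = 0.003157). A region of Nfkbiz, which encodes the atypical inhibitor IkB-zeta, fell by 4.3 (SE 0.518, adjusted p = 0.004076). The widest gained region of Nfkb1 (chr3:135583294-135591660) ranked 769, 235, 324 and 154 at 2 h and 7886.5, 7617, 1195.5 and 8402.5 at 6 h, and its score fell by 4.01 (SE 0.736, adjusted p = 0.0182). Of the called regions, 6 rises and 25 falls had all their shortened-list summits in the higher group. Nfkb1 had 10 falling regions, Cd40 and Gbp5 4 each, and Fnbp1l, Jak2, Mllt6, Nfkbiz, Nlrp3, Pgs1 and Tnip1 3 each. Spaca6 rose by 3.73 (SE 0.559, adjusted p = 0.009502), with ranks of 5517.5 to 8380.5 at 2 h and 358 to 989 at 6 h. The Syk region described above rose by 2.37 (SE 0.614, adjusted p = 0.0482), a call that held only when WT replicate 2 of 6 h was left out and reached 0.109 otherwise. Those of Cd40, Nfkbiz, Nfkb1 and Spaca6 passed without any 1 of the 12 libraries. The count was 62 without WT replicate 2 of 4 h, and 64 without WT replicate 1 or KO replicate 2 of 4 h. Without KO replicate 2 of 6 h there were 46 rises and 42 falls, and without WT replicate 1 of 6 h 56 rises and 37 falls. With lists as deposited, 59 gained regions rose and 28 fell, and with only the presence of a summit scored, 404 rose and 111 fell.

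From 4 h to 6 h no gained region rose and 2 fell, against 0.0924% and 0.323% of all regions, and 180 gained regions had an unadjusted p under 0.05. Mapkapk2, the kinase MK2 downstream of p38, ranked 593.5, 1002.5, 487 and 370 at 4 h and 7126, 5273, 4772 and 5017 at 6 h. Its score fell by 3.26 (SE 0.509, adjusted p = 0.0363), and Flrt2 fell by 1.93 (SE 0.311, adjusted p = 0.039). The Mapkapk2 call was lost without either WT library of 2 h or KO replicate 2 of 6 h (adjusted p up to 0.0734). That of Flrt2 was lost without any 2 h library or replicate 2 of either genotype at 6 h (adjusted p up to 0.074). Leaving out 1 library moved this count from 2 to between 0 and 56. It was 0 without either WT library of 2 h, 1 without either KO library of 2 h, 16 and 17 without WT replicates 1 and 2 of 4 h, and 24 and 16 without KO replicates 1 and 2 of 4 h. Without WT replicates 1 and 2 of 6 h it was 34 and 9, and without KO replicates 1 and 2 of 6 h it was 56 and 11.

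**Figure D5:**
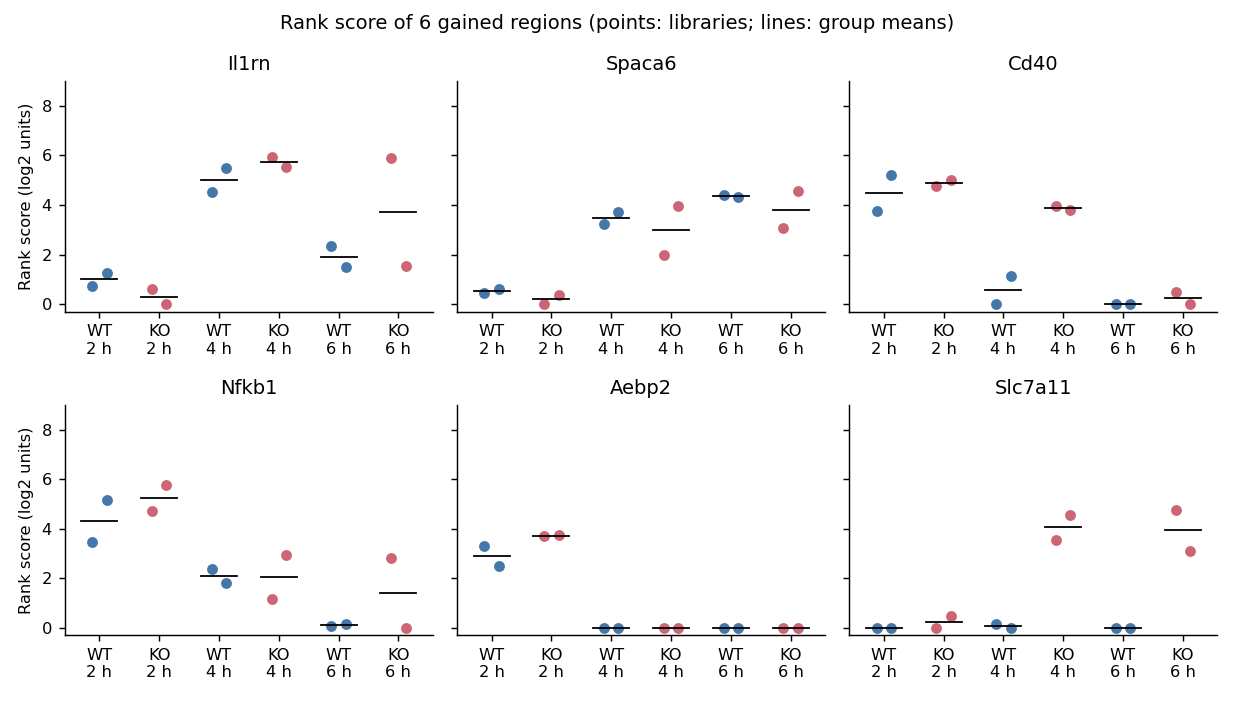
Rank score in log2 units (y axis; 0 where a region had no summit among the 8394 best) of 6 gained regions in each R837 library (points; WT blue, KO red) with group means (lines). Il1rn and Spaca6 lie higher at 4 h than at 2 h, Cd40, Nfkb1 and Aebp2 lie lower at 6 h than at 2 h, and Slc7a11 lies high in the KO libraries of 4 and 6 h alone.

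The genotypes differed at few single regions. Over the 3 times 1 gained region was higher in KO and none was lower, against 0.0308% each way of all regions, with 212 gained regions at an unadjusted p under 0.05. It was Slc7a11, the cystine-glutamate exchanger that supplies glutathione synthesis, at the internal start shown above. Neither WT library had a summit there at 2 h, and the KO ranks were 11585 and 5984. At 4 h the ranks were 7458 and 11140 in WT and 709.5 and 353 in KO. At 6 h they were 8763.5 and none in WT and 308 and 966.5 in KO, so the 4 later KO libraries ranked it between 308 and 966.5 while the best rank in a WT library was 7458. The score was higher in KO by 2.72 over the 3 times (SE 0.375, adjusted p = 0.0492), by 3.98 at 4 h (SE 0.649, adjusted p = 0.0319) and by 3.94 at 6 h (SE 0.649, adjusted p = 0.0276). The change over the 3 times stayed between 2.449 and 2.999 without any 1 library, but it passed only without KO replicate 1, KO replicate 2 or WT replicate 1 of 6 h, and the other 9 omissions gave adjusted p up to 0.0945. The call at 4 h passed only without KO replicate 1 of 4 h or either KO library of 6 h (up to 0.0775), and that at 6 h was lost without either WT library of 2 h or WT replicate 2 of 6 h (up to 0.0732). Gsr and Txnrd1, 2 other NRF2 target genes, also hosted gained regions. Gsr, glutathione reductase, was higher in KO at 6 h by 2.47 (SE 0.464, adjusted p = 0.0387), with ranks of 1335 and 1717 in KO and 11086 and none in WT. That call held only without KO replicate 1 of 6 h or either WT library of 4 h, with adjusted p up to 0.0996. The count over the 3 times was 9 higher and 7 lower without KO replicate 1 of 6 h, 2 higher and 13 lower without WT replicate 1 of 6 h, 1 without KO replicate 2 of 6 h, and 0 without any of the others.

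At 2 h, 2 gained regions were higher and 6 lower in KO, against 0.131% and 0.239% of all regions. Icosl, the ligand of ICOS, ranked 1068.5 and 478.5 in KO at 2 h. Its region had a summit in all 6 KO libraries and in no WT library, so it was selected through KO alone and its call is given without a test. A Picalm region was higher by 3.71 (SE 0.601, adjusted p = 0.041). Regions of Adgre1, Il4ra and Nfkbiz were lower, by -3.42, -3.10 and -2.39, with adjusted p = 0.0347 each. The other 3 of the 6 lower regions, in Mcoln2, Tgfbi and Picalm, were in the shortened lists of WT libraries at 2 h only, so they entered the test through the group where they were high and their calls carry no weight. The Adgre1 region was in shortened lists of WT libraries of 2 and 4 h alone, so its call is given as a description. The call for Il4ra was lost without any 4 h library, either WT library of 6 h or KO replicate 2 of 6 h, and those of Adgre1 and Nfkbiz without any 4 h library or either WT library of 6 h (adjusted p up to 0.0677). The higher Picalm call held only without KO replicate 2 of 2 h. The count was 0 without any 4 h library or either WT library of 6 h, 2 without KO replicate 2 of 6 h, 31 and 17 without KO replicates 1 and 2 of 2 h, and 38 and 23 without WT replicates 1 and 2 of 2 h.

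At 4 h, 8 gained regions were higher and 10 lower in KO, against 0.424% and 0.408%. Of 38 tested regions in the interferon-stimulated list, 3 were lower (Ifit1, Oasl2 and Stat2) and none higher. Another lower region, in Ifit1bl1, ranked 305.5 and 1338 in WT and 10652.5 and 8384 in KO and was lower by -3.71 (SE 0.642, adjusted p = 0.039), a call that held only without either WT library of 4 h or KO replicate 1 of 6 h. Regions of Xaf1, Znfx1 and Pid1 were lower too, and that of Ifit1 lies in Ifit1bl1 as well. Of the 18 called, 3 higher and 2 lower regions (Stat2 and Znfx1) had all shortened-list summits in the higher group. Gained regions of Oasl2 were in shortened lists of WT libraries of 4 and 6 h alone. The Oasl2 region thus entered the test through WT, and its call carries no weight. Tnip3, which encodes the NF-kB inhibitor ABIN-3, had 1 region higher and 3 neighbouring ones lower. The higher one ranked 99 and 165 in KO and had no WT summit at 4 h, with a change of 6.04 (SE 0.942, adjusted p = 0.0319). The lower ones had changes of -5.45, -5.01 and -4.89, and no KO summit at 4 h. The call of the higher region was lost without any 2 h library, either WT library of 4 h or KO replicate 1 of 4 h. The lower ones were lost without any 2 h library, without KO replicate 1 or 2 of 4 h, and, for each, without 1 or both WT libraries of 4 h, and the one with the change of -5.45 also without either WT library of 6 h (adjusted p up to 0.115). When the best summit of a gene's body regions was taken as 1 value per gene, Tnip3 did not pass, with a change of 0.19 (SE 0.788, adjusted p = 1). In that measure, 4 host genes were higher in KO at 4 h (Slc7a11, Cd40, Traf1 and Pik3r6) and 2 lower (Ifit1 and Oasl2). For Oasl2 this too is given as a description, since its gained regions were in shortened lists of WT libraries alone. Of all 2076 genes so tested, 0.723% were higher and 0.434% lower. Deposited lists gave 22 regions higher and 12 lower, and presence of a summit 63 and 18. The count of regions was 0 without any 2 h library. Without a 4 h library it was 22 to 26, of which 18 were higher when a KO library was left out and 20 and 23 lower when a WT library was.

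At 6 h, 4 gained regions were higher and 9 lower in KO, against 0.678% and 0.531%. Besides Slc7a11 and Gsr, the higher ones were in Tnfrsf8 (CD30), by 3.96 (SE 0.726, adjusted p = 0.036, lost unless a WT library of 4 h was left out), and Ptges, a prostaglandin E synthase. Rac2, a small GTPase of the phagocyte oxidase, ranked 368.5 and 170.5 in WT and had no KO summit, with a change of -5.07 (SE 0.857, adjusted p = 0.029). That call was lost without replicate 2 of either genotype at 6 h, either KO library of 4 h or WT replicate 2 of 2 h (adjusted p up to 0.101). Adgre1 had 3 lower regions, of which the 2 with the largest changes passed only without replicate 1 of either genotype at 6 h (adjusted p up to 0.125 and 0.142), and the third was lost without WT replicate 2 of 2 h (0.0531). The lower region of Itm2b had all its shortened-list summits in WT libraries of 6 h. Gained regions of Gm5150 and Trib1, each with a lower region, were also in shortened lists of WT libraries alone. The calls of these regions carry no weight. Taking 1 value per gene body, 6 host genes were higher (Slc7a11, Nlrp3, Tnfrsf8, Traf1, Ctnnd1 and Dtx2) and 3 lower (Gm5150, Psap and Itm2b), against 1.25% and 1.06% of the 2076 genes. In shortened lists, gained regions of Dtx2 were found only in KO replicate 1 of 6 h, and those of Gm5150 and Itm2b only in WT. The calls of Dtx2, Gm5150 and Itm2b are given as descriptions. The direction of the region calls turned with the lists used. Deposited lists gave 23 higher and 6 lower, and scoring only the presence of a summit gave 138 higher and 22 lower. There were 28 higher and 16 lower without KO replicate 1 of 6 h and 21 higher and 2 lower without KO replicate 2. Without WT replicate 1 of 6 h there was 1 higher and 60 lower, and without WT replicate 2 there were 0 higher and 13 lower. The total was 4 without either KO library of 2 h, 3 and 0 without WT replicates 1 and 2 of 2 h, and 6 and 3 without KO replicates 1 and 2 of 4 h. No gained region passed the test of KO against WT at 6 h relative to 2 h, against 0.0154% higher and 0.0077% lower of all regions, and 137 of the 1502 had an unadjusted p under 0.05 in limma. Leaving out 1 library gave up to 14 calls in that contrast, with 14 without WT replicate 1 of 6 h, 13 without KO replicate 1 of 6 h, 13 and 12 without WT replicates 1 and 2 of 2 h, 10 and 3 without KO replicates 1 and 2 of 2 h, and 3 without KO replicate 2 of 6 h.

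N4bp1 itself held 6 gained regions, with deposited-list counts of 1, 1, 3 and 3 at 2 h (WT, then KO), 4, 6, 6 and 6 at 4 h, and 5, 2, 5 and 4 at 6 h. A summit within 1 kb of its start was present in all 4 untreated and all 12 R837 libraries. Since the removed part is not stated, these summits do not check the genotype labels.

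Grouped by role, early NF-kB genes were the most represented pathway. Of 34 NF-kB primary response genes, 19 hosted 90 gained regions, all tested. Besides Nfkb1 these lay in Birc3 and Malt1 (10 each), Cd40 (7), Traf1 (6), Ehd1 (5), Nfkbiz (4) and 12 further genes including Rel, Relb, Icam1, Il1b and Ptgs2. From 2 h to 4 h, 2 of the 90 rose (both in Ccl4) and 24 fell, and from 2 h to 6 h none rose and 26 fell. Nfkb1 alone held 9 of the 24 falls and 10 of the 26. Some of the falls in Nfkb1, Relb and Slc2a6, and a rise in Ccl4, had all shortened-list summits in the higher group. Those calls carry no weight. The median change was -0.77 and -0.81, against a median of 0 over the gained regions tested and 0.06 over all regions in both contrasts. Negative feedback genes, 11 of 28 as hosts, held 75 gained regions, of which 65 were tested. They include Tnip1 (16), Tnip3 (13), Dusp16 and Pde4b (9 each), Irak3 (8) and Zc3h12c (7), and 2 rose and 6 fell from 2 h to 4 h. Components of TLR, IKK and caspase-8 signalling had 39 gained regions in 11 of 38 genes, among them Cflar, the caspase-8 inhibitor (10), Mapkapk2 (9), Irak2 (7) and Ikbke (6). Of the 36 tested, none rose and 2 fell from 2 h to 4 h. These counts stand beside 2.73% of the gained regions tested that rose from 2 h to 4 h and 4.66% that fell, and 0.999% and 5.53% from 2 h to 6 h.

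Interferon-stimulated genes held 42 gained regions in 12 of 32 genes, led by Parp14 (12) and Rnf213 (7). Of 38 tested, 4 rose and 2 fell from 2 h to 4 h, and 5 fell from 2 h to 6 h. The rise in Stat2, and a fall in Gbp5 in each contrast, had all shortened-list summits in the higher group and carry no weight. Secondary cytokine and effector genes held 20 in 7 of 23 genes, 11 of them in Nos2 and 3 in Il12b, and 1 (Cd38) rose from 2 h to 4 h. Macrophage identity genes held 61 in 10 of 33 genes, 27 in Adgre1, 11 in Msr1 and 8 in Itgam, the integrin CD11b. Glycolysis and hypoxia genes held 26 in 9 of 22 genes, 11 in Pfkfb3 and 5 in Slc2a1, and none of the 22 regions tested passed in any contrast. Taking 1 value per gene body, Slc16a3, Ldha and Pgk1 were higher at 4 h and at 6 h than at 2 h. So was Eno1 at 6 h, and no other host gene of this list passed in these contrasts. Of all 2076 genes so tested, 6.41% were higher at 4 h and 6.65% at 6 h. A host gene had to hold a region found in at least 6 R837 libraries. Gained regions of Ldha and Eno1 were in no shortened list at 2 h, so the rule favoured a rise. The rises of the glycolysis and hypoxia genes are given as descriptions. The Pfkfb3 share was lower in KO at 6 h, as given above. Lysosome genes had 10 gained regions in 5 of 24 genes, NRF2 target genes 4 in 3 of 12, and immediate early and cell cycle genes 1 each (Fosl2 and Cdk6). The median KO minus WT change over the 3 times was -0.52 for macrophage identity, -0.36 for interferon-stimulated, -0.33 for lysosome and 0.74 for NRF2 target genes, and between -0.12 and 0.51 for the other lists with a tested region, against -0.07 over the gained regions tested and 0.05 over all regions. Genes can be in more than 1 list, as Ctsb, Ctsd and Psap are, and the regions of 1 gene share its polymerase, so neither lists nor regions are independent counts.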

How the data were processed

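RNA polymerase II ChIP-seq of mouse bone marrow-derived macrophages gave 16 libraries in 8 groups of 2. Each file deposited by the authors listed the peak summits of 1 library as single bases, with a score that is −log10 of a p or q value, the files not saying which. GSNAP, MACS2 and GRCm38 are named in the submitters' processing notes, and versions, thresholds and control are not given in the sources used here. An input sample was not used.

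Regions, genes and the rule were computed with Python 3 and pandas from 298175 summits and 21883 protein-coding genes of RefSeq (GRCm38.p6). Strand came from RefSeq promoter windows and was found for 17491 genes. Exons and introns were not determined. Rank scores came from lists shortened to 8394 summits. The fit used limma 3.58.1 (R 4.3.3) over the 12 R837 libraries, with 1 mean per group, a variance trend, empirical Bayes moderation and Benjamini-Hochberg adjustment over all regions tested (threshold 0.05). The fit was tested on simulated data. Alternatives covered chaining, distances, list length, filters, the replicate block and leaving out each library.

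Members and lists were chosen with earlier results of these data known. Named regions were the 12 seen in most libraries, the 5 genes with most regions, up to 6 called per contrast with the largest change, list members in the same order, and those at the edge of the rule. Other genes were named after their values were seen. Read depth is unknown, so no counting error can be given. A region that this rule names is not reported here.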

Additional observations from a re-analysis of the deposited data

How the results depend on the processing

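The number of gained regions was 593 with summits chained up to 1000 bp, 3114 with a summit required in 4 R837 libraries and 895 with 8, and 1408 to 1863 without 1 library. It stayed within 1.5 times of 1743 with chaining at 250 bp, other distances from gene ends, a score minimum or whole spans away from gene ends.

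Counts of called gained regions varied more, and the cause was not tested. Without 1 library they ran from 58 to 145 for 4 h against 2 h, 62 to 141 for 6 h against 2 h, 0 to 56 for 6 h against 4 h, 0 to 16 for KO against WT over the 3 times, 0 to 38 at 2 h, 0 to 26 at 4 h, 0 to 61 at 6 h, and 0 to 14 for KO against WT at 6 h relative to 2 h. In the next sentences counts follow the order 4 h against 2 h, 6 h against 2 h, 6 h against 4 h, then KO against WT over the 3 times, at 2 h, at 4 h, at 6 h, and at 6 h relative to 2 h, leaving out contrasts within 1.5 times of the reported count. With all 16 libraries in the fit the counts were 257, 212, 80, 50, 41, 44, 48 and 29. Scoring only the presence of a summit in the deposited list gave 537, 515, 150, 227, 60, 81, 160 and 177. Lists of their own length gave 292 for 4 h against 2 h, 48 for 6 h against 4 h, and 0, 34 and 29 for KO against WT at 2, 4 and 6 h. Lists shortened to 4197 summits gave 44, 40 and 1 for the times, and 0, 9 and 8 for KO against WT over the 3 times, at 4 h and at 6 h. With summits in at least 1 list, the counts were 57 and 56 for 4 h and 6 h against 2 h, and 0, 1, 0 and 6 for KO against WT over the 3 times and at 2, 4 and 6 h. A minimum of 4 lists gave 10 for 6 h against 4 h, and 3, 1, 4 and 6 for KO against WT. Chaining at 250 bp gave 16 and 14 for 4 h and 6 h against 2 h, and 0, 0 and 5 for KO against WT over the 3 times, at 4 h and at 6 h. Chaining at 1000 bp gave 62, 49 and 1 for the times, and 3, 0 and 6 for KO against WT over the 3 times, at 2 h and at 6 h. With 1 rank per region the counts were 1 for 6 h against 4 h, and 0 and 9 for KO against WT over the 3 times and at 4 h. With a gene body as 1 unit, 5, 0 and 6 host genes were called for KO against WT over the 3 times, at 2 h and at 4 h. From 2 h to 4 h that unit gave 58 host genes higher and 29 lower, and from 2 h to 6 h 42 higher and 37 lower. The 3 lower Tnip3 regions at 4 h turned to 0.19 with that unit. These last 2 settings, and whole spans away from gene ends, were chosen after seeing the data.

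Replicate numbers did not pair libraries, since the correlation of same-numbered deviations ran from -0.121 to 0.176. A fit with the replicate number as a block gave 49 and 51 calls for 4 h and 6 h against 2 h and 0 in each of 6 h against 4 h and KO against WT over the 3 times, at 2 h, at 4 h and at 6 h. For the share of regions per gene, the block left 2 genes for 6 h against 4 h and stayed within 1.5 times elsewhere. Deposited lists gave 7 genes for 6 h against 4 h, 7 for KO against WT at 4 h and 16 at 6 h relative to 2 h. Without 1 library, genes called ran from 15 to 21 for 4 h against 2 h, 13 to 21 for 6 h against 2 h, 1 to 4 for 6 h against 4 h, 2 to 19 for KO against WT over the 3 times, 0 to 2 at 2 h, 0 to 3 at 4 h, 0 to 17 at 6 h and 0 to 2 at 6 h relative to 2 h.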
